A study of Rattus norvegicus with 8 samples.

Results

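The genes described here are 8 transcription factors listed as tubule identity factors: Hnf4a, Hnf4g, Foxa1, Foxa2, Cebpa, Cebpb, Pax2 and Pax8. Whether each of them acts in adult tubule cells was not tested. They were chosen by name, and their probes were found as the non-control probes whose RefSeq transcript record belongs to one of these rat genes. Of the 14737 genes that could be named in this way, 7 were members of the group, with 8 probes among the 30367 different probes of the array. Hnf4g had no probe under this rule, Foxa1 had 2 probes, and each of the other genes had 1.

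RNA came from cortical kidney slices of 4 male and 4 female adult rats of the strain RCCHanTMWIST. No treatment is given in the labels, each rat gave 1 array, and all 8 one-colour arrays lay on 1 slide. A cortical slice holds proximal tubule together with glomeruli and parts of the other nephron segments, so that fewer cells of a type and less RNA per cell cannot be told apart. The comparison asked which genes differ between the sexes in this tissue. Proximal tubule markers were well above background for 10 of 10 genes, collecting duct markers for 10 of 10 and podocyte markers for 6 of 6. Of 8 hepatocyte genes, Apob and Fgb were well above background on 8 arrays, Alb on 7, Ahsg on 6 and Serpina1 on 5, whereas Apoa1, Cps1 and Tat were so in no rat. The summed level of the hepatocyte list, as the sum of the signals relative to the 75th percentile, was 0.43 to 0.84 in females and 0.55 to 0.98 in males.

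HNF4α, the product of Hnf4a, is a nuclear receptor that binds DNA as a dimer and drives the maturation of proximal tubule cells, where it activates genes of transport and metabolism. The FOXA proteins are forkhead factors that can open closed chromatin, and they are best known from liver, gut and other endoderm. C/EBPα and C/EBPβ are leucine zipper factors of liver and fat, and C/EBPβ is also induced by inflammatory signals. PAX2 and PAX8 are paired box factors that found the nephric lineage in the embryo, and PAX8 persists in the adult tubule.

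A list was made of tubule genes known to depend on HNF4α or other liver-enriched factors, or to be bound by them. The promoter of Apoh is shown because Apoh had the smallest adjusted p of that list. Its promoter also holds letters of a FOXA motif. The sequence holds the 250 bases before the transcription start in RefSeq (build GRCr8, chr10:93841742-93841991), written 5′ to 3′ on the plus strand, with matches to the searched motifs in capitals.
Apoh: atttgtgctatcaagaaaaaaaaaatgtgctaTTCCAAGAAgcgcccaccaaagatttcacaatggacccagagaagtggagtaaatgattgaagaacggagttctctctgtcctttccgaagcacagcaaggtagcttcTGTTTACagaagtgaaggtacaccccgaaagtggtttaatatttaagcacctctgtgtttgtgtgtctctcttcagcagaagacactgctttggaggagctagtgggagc

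The motifs were searched on both strands, as CAAAGTC for HNF4, TNTTTAC for FOXA, TTGCNNAA for C/EBP and TTCNNNGAA for STAT5 and BCL6, where N is any base. Apoh held the FOXA letters from position −110 to −104 before the start and the STAT5 and BCL6 letters from −218 to −210, and these matches did not overlap. Of 33469 promoter windows of this length, 3.95% held the HNF4 letters, 11.6% the FOXA letters, 9.22% the C/EBP letters and 7.67% the STAT5 and BCL6 letters. Among the members, 6 of 8 genes had a promoter entry, and the single match was the C/EBP motif of Pax8 from −134 to −127. Such a match describes the letters of the window and does not show that a factor binds there.

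Of the 8 member probes, 7 rose clearly over the local background (the scanner software's flag for well above background) on 4 or more of the 8 arrays and were tested, 6 of them on all 8. Values are log2 signals from which the 75th percentile of each array (log2) was subtracted. A probe was called sex-dependent at a limma adjusted p below 0.05 and at least a 2-fold difference. 1 of the 7 member probes was called, where 1.89% of all 23425 tested probes were. At the adjusted p alone it was again 1 of 7, against 8.06% of all probes, and the values of the sexes did not overlap for 2 of 7, against 18.5%. With 7 probes, counts of 1 and 2 are not a result about the group. The median log2 fold-change, male minus female, was 0.021 over the 7 member probes and −0.045 over all tested probes, and 4 of 7 member probes had a positive value, against 41.6% of all.

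**Figure D1:**
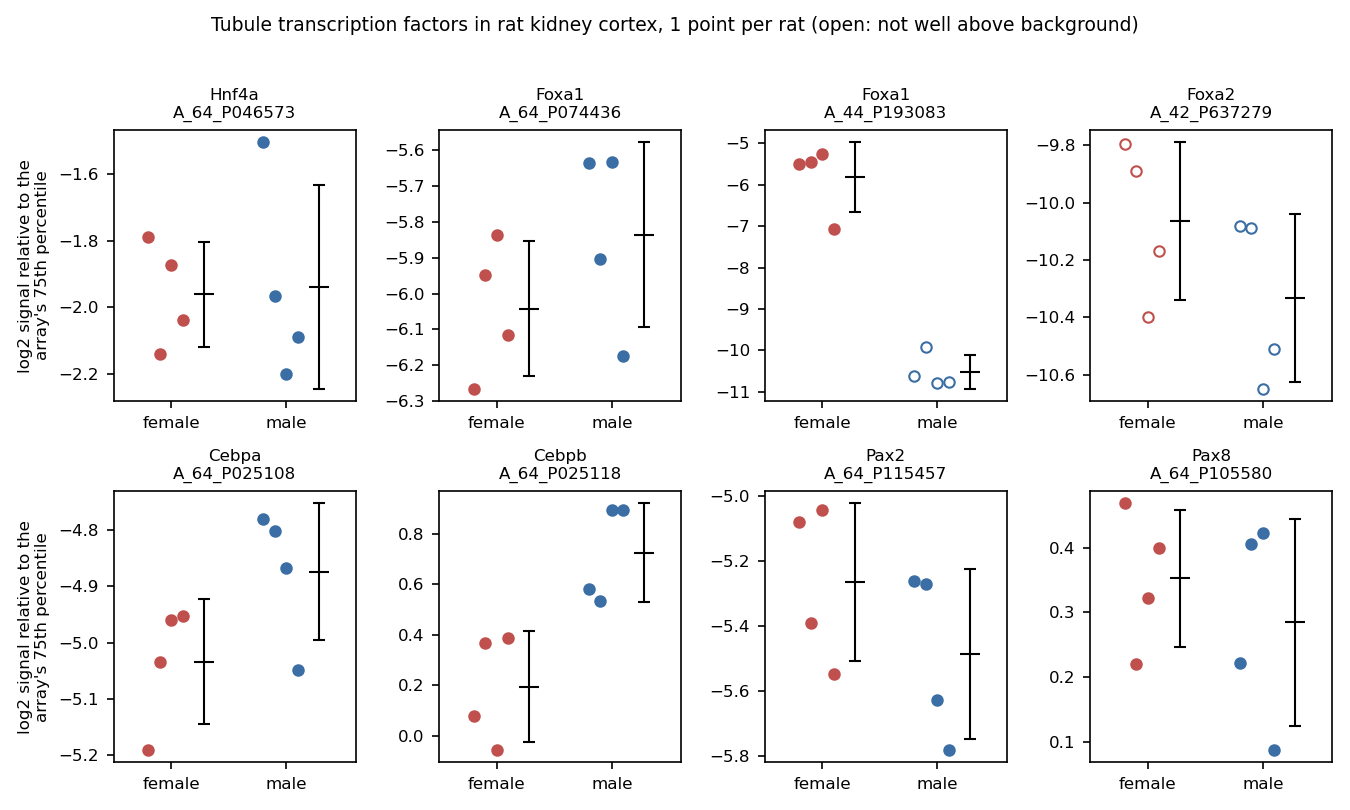
Log2 signal relative to the 75th percentile of the array for the 8 member probes, with 1 point per rat (red female, blue male), open where the probe was not well above background, and the mean with SD over 4 rats beside each sex. The vertical axis differs between panels, and the sexes are apart in the panels of Foxa1 A_44_P193083 and Cebpb.

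Hnf4a, the nuclear receptor of the group, did not differ between the sexes beyond the spread between rats. Its probe (A_64_P046573) had log2 values of −1.79, −2.14, −1.87 and −2.04 in female replicates 1 to 4 and of −1.50, −1.97, −2.20 and −2.09 in male replicates 1 to 4. The sexes overlapped, since the highest and the lowest value were both from males. The means were −1.96 ± 0.16 in females and −1.94 ± 0.31 in males (SD, n = 4), which gave a log2 fold-change of 0.02 with a 95% interval of −0.34 to 0.38 (SE 0.16, limma adjusted p = 0.952). The sign rested on single rats: the value was −0.039 without female replicate 2, −0.0053 without female replicate 4 and −0.125 without male replicate 1. Within the rows of the slide, each with 2 rats of each sex, the difference was 0.16 in the first row and −0.12 in the second.

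Foxa1 was the 1 member with a called difference, which was found at 1 of its 2 probes. The brighter probe over all arrays (A_64_P074436) gave processed signals of 73.2, 81.4, 97.5 and 85.8 in females and of 132, 95.5, 130 and 89.3 in males, and it was well above background in every rat. The other probe (A_44_P193083) gave 125, 116, 146 and 44.1 in females but 4.14, 5.99, 3.63 and 3.71 in males. Every female signal of the second probe was well above background and every male signal was not, with no overlap between the sexes. The lowest signal that counted as well above background lay between 14.5 and 23.9 on the 8 arrays, so that the male values lay below what the arrays resolve.

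**Figure D2:**
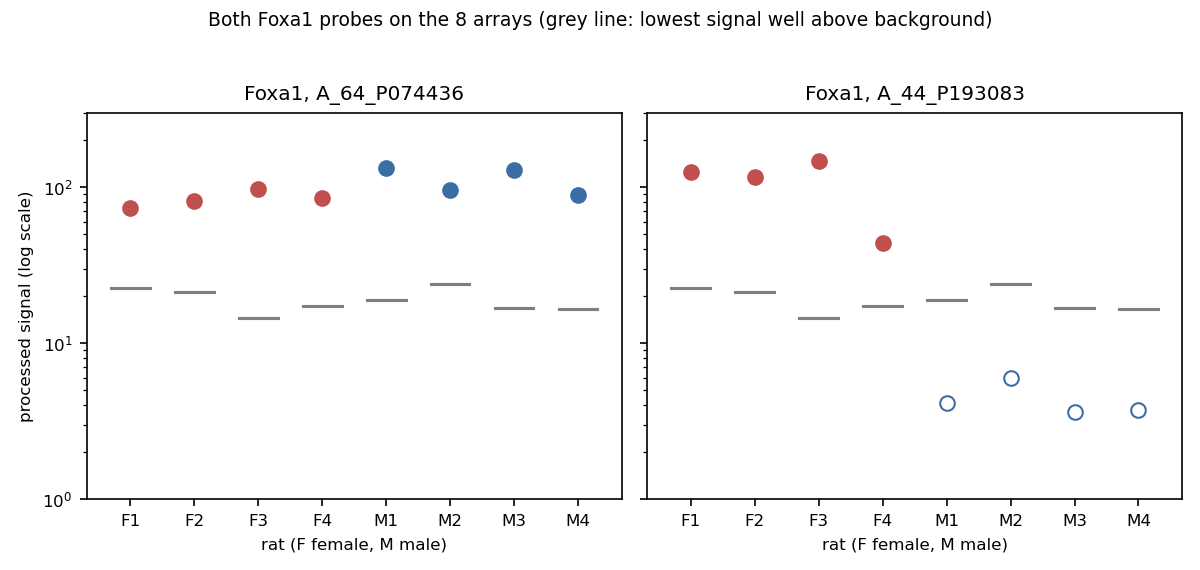
Processed signal of both Foxa1 probes in the 4 female rats (F1 to F4, red) and the 4 male rats (M1 to M4, blue) on a log axis, open where not well above background, with the lowest signal well above background on each array as a grey line. The sexes overlap for A_64_P074436, whereas for A_44_P193083 the male signals of 3.63 to 5.99 lie below the grey lines and the female signals of 44.1 to 146 above them.

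On the log2 scale, A_64_P074436 had −6.27, −5.95, −5.84 and −6.12 in females and −5.64, −5.90, −5.63 and −6.17 in males. Its log2 fold-change was 0.21 with a 95% interval of −0.13 to 0.54 (SE 0.15, limma adjusted p = 0.425), and the sexes overlapped. A_44_P193083 had −5.50, −5.44, −5.25 and −7.08 in females and −10.63, −9.92, −10.79 and −10.76 in males, with means of −5.82 ± 0.85 and −10.52 ± 0.41 (SD, n = 4). Because it was well above background in no male, its male level was not measured. The probe entered the fit through its 4 female arrays alone. Set against the dimmest value that counted as measured on each male array, its female mean was 5.90-fold higher. That value is a guide and was not tested, since a signal above the dimmest passing one can still miss the flag. The limma adjusted p of 0.000734 belongs to the fitted log2 fold-change of −4.71, which rests on male signals below background. Within each row of the slide the fitted difference kept its direction, with −4.53 in the first row and −4.88 in the second. With each rat left out in turn it lay between −5.13 and −4.52. These values rest on the same male signals below background and are not separate tests of the difference.

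All 8 female spots of A_44_P193083 were well above background, out of 16 spots on the 8 arrays. Since the male level of this probe was not measured, no size and no test is given here for the difference between the 2 Foxa1 probes. Both probes carry the same RefSeq transcript record, and their sequences and places in the transcript were not analysed here, so that it cannot be told from these data which of them follows the Foxa1 transcript.

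FOXA1 is also known from urothelium, and markers of urothelium of the renal pelvis were looked at beside it. Of 6 tested markers, 1 rose in males, the keratin Krt7 with a log2 fold-change of 0.41 (limma adjusted p = 0.0417), and none fell. Krt7 did not pass the adjusted p in 9 of 18 alternative settings. The summed level of the list was 4.04 to 4.58 in females and 4.75 to 6.28 in males, and most of it was Krt7. The 5 other tested markers had negative log2 fold-changes that did not pass, from −0.17 for Krt5 to −0.60 for the plaque protein gene Upk3a (limma adjusted p = 0.116), and the median of the list was −0.20. Upk2, which encodes another plaque protein, was well above background in no rat. The part of urothelium in the values of either Foxa1 probe was not tested.

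Among the tested probes with a gene name, the profile of A_44_P193083 over the 8 rats was compared after centring on its mean. It was closest by mean absolute difference to those of Cmtm2a, Slc22a7 and Slc7a12. The male values of the Foxa1 probe that enter this likeness were below background, so that it describes the fitted values and gives no order among the 3 genes. Slc22a7 encodes the organic anion transporter Oat2, Slc7a12 an amino acid transporter and Cmtm2a a membrane protein of the chemokine-like factor family. Their log2 fold-changes were −4.09 for Cmtm2a, −5.12 for Slc22a7 and −4.57 for Slc7a12. All of these genes were well above background in both sexes, unlike the Foxa1 probe, so that their male levels were measured. Slc22a7 had signals of 16850, 12200, 14280 and 6503 in females and of 457, 234, 434 and 462 in males. Slc7a12 had 42270, 41460, 25870 and 14100 in females and 1459, 1042, 1277 and 1713 in males. Cmtm2a had 1386, 693, 1230 and 501 in females and 60.8, 57.7, 56.8 and 58.7 in males. In each of these 3 genes, as at the Foxa1 probe, the lowest female value was that of female replicate 4, which is part of what likeness selects. Next to Foxa1 in the RefSeq gene order lies Prps1l3, a gene looked at after the values of Foxa1 were seen, whose log2 fold-change was 0.0056 (limma adjusted p = 0.989).

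Foxa2, the second forkhead member, was not well above background in any rat of either sex. Its probe (A_42_P637279) is printed 10 times on the array, and 0 of 80 spots were well above background. The signals were 6.73, 5.33, 4.58 and 5.45 in females and 6.39, 5.22, 4.00 and 4.68 in males. All lay below the lowest signal well above background, so that no level and no fold is given. Foxa3, a further FOXA gene, was well above background on 1 female and 3 male arrays and had a log2 fold-change of 0.18 (limma adjusted p = 0.380), or of −0.038 after normexp background correction.

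The C/EBP members both had a higher mean in males, and neither passed the adjusted p. Cebpb (A_64_P025118) had log2 values of 0.08, 0.37, −0.06 and 0.39 in females and of 0.58, 0.54, 0.89 and 0.90 in males. Each male value was above each female value. The means were 0.19 ± 0.22 and 0.73 ± 0.20 (SD, n = 4), and the log2 fold-change of 0.53 had a 95% interval of 0.22 to 0.845 (SE 0.14), or 1.45-fold. Its adjusted p was 0.0511 with limma, and the two-sided exact permutation test gave p = 0.0286, the smallest it can give. Of all tested probes, 8.20% had an unadjusted p as small as that of Cebpb, and 18.5% had sexes that did not overlap. Cebpb did not pass the adjusted p in 15 of 18 alternative settings, where the limma adjusted p was up to 0.117. It passed in 3. The limma adjusted p was 0.0438 when only probes well above background on all 8 arrays were tested. It was 0.0275 with an intensity trend and robust prior and 0.0427 with array weights. The difference was 0.57 in the first row of the slide and 0.49 in the second.

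Cebpa (A_64_P025108) had log2 values of −5.19, −5.04, −4.96 and −4.95 in females and of −4.78, −4.80, −4.87 and −5.05 in males. Only male replicate 4 lay within the female range. The log2 fold-change was 0.16 with a 95% interval of −0.043 to 0.36 (SE 0.09, limma adjusted p = 0.297). Of the other C/EBP genes, Cebpg, whose product pairs with the other C/EBP proteins, did not overlap between the sexes, with a log2 fold-change of 0.26 (SE 0.07, limma adjusted p = 0.0508), and it passed in 5 of 18 alternative settings. Cebpd, like Cebpb an inflammation-induced member, had −0.54 with a wide spread (SE 0.32, limma adjusted p = 0.332). Of the immune cell markers, none passed the adjusted p: the leukocyte gene Ptprc had 0.43 (limma adjusted p = 0.145), the T cell gene Cd3e 0.96 (limma adjusted p = 0.340) and the myeloid gene Itgam −0.88 (limma adjusted p = 0.443). With the red cell genes Hbb and Alas2, the summed level of the list was 44.3 to 55.7 in females and 36.6 to 54.5 in males, and most of it was Hbb. The part of immune cells in the values of the C/EBP genes was not tested.

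The paired box members had overlapping values. Pax8 (A_64_P105580) had log2 values of 0.47, 0.22, 0.32 and 0.40 in females and of 0.22, 0.40, 0.42 and 0.09 in males. Its log2 fold-change was −0.07 with a 95% interval of −0.29 to 0.16 (SE 0.10, limma adjusted p = 0.711), and within the slide rows the difference was −0.21 and 0.07. Pax2 (A_64_P115457), which in the adult kidney is known from the collecting duct, had −5.08, −5.39, −5.04 and −5.55 in females and −5.26, −5.27, −5.63 and −5.78 in males. The highest value was that of a female rat and the lowest that of a male rat, and the ranges of the sexes overlapped. Its log2 fold-change was −0.22 with a 95% interval of −0.59 to 0.15 (SE 0.16, limma adjusted p = 0.439). Collecting duct markers, none of 10 passing the adjusted p, had a summed level of 53.4 to 69.4 in females and 44.9 to 57.8 in males. Aqp2 made up the largest part of this sum.

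**Figure D3:**
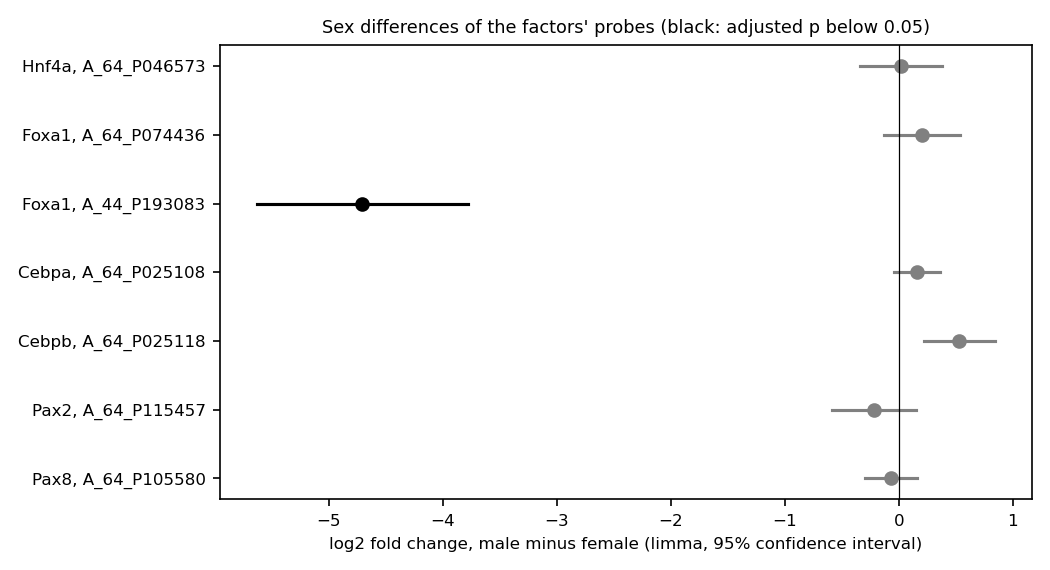
Log2 fold-change, male minus female, with its 95% confidence interval from limma for the 7 tested member probes, in black where the adjusted p was below 0.05 and in grey otherwise. The value of Foxa1 A_44_P193083 is the fitted one of −4.71, which rests on male signals below background. The intervals of Hnf4a, Foxa1 A_64_P074436, Cebpa, Pax2 and Pax8 include 0.

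The closest relatives of the members by family, such as other FOX, PAX and C/EBP genes and the nuclear receptors Rxra, Nr2f1, Nr2f2 and Nr2f6, were counted next. Of 15 tested relatives, 1 rose in males, 1 fell and 13 did not pass, with a median log2 fold-change of 0.019, or −0.033 after normexp background correction. Pax3, a paired box factor of neural crest and muscle, rose with 0.55 at the brighter of its 2 probes (SE 0.11, limma adjusted p = 0.0215). The mean signal of this probe was 25280, against 7384 for the Pax8 probe, and whether it follows the Pax3 transcript was not tested. Foxj1, the master regulator of motile cilia, fell with −0.59 (SE 0.14, limma adjusted p = 0.0378). Neither reached a 2-fold difference. With quantile normalization 2 rose and 0 fell. Foxj1 did not pass the adjusted p in 10 of 18 alternative settings, and Pax3 did not in 2. The count of 2 became 0 without female replicate 3, when neither passed, and 1 without female replicate 1, 2 or 4 or male replicate 2, 3 or 4.

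Among other transcription factors that pattern or maintain kidney epithelium, 5 fell in males. Of the 23 tested genes reported here, 18 did not pass, where of all 23425 tested probes 1094 fell and 795 rose. 21.7% of these genes thus passed the adjusted p, where 8.06% of all probes did. With quantile normalization 4 of the factors fell, and over all probes 863 fell and 1112 rose. The median log2 fold-change was −0.27, against −0.045 over all probes. This list was chosen with earlier results of these data known and takes the brightest probe of each gene. Its values and those of all probes are therefore not alike, and their difference is not a result about the list. Those that fell were Sim2 with −0.68 (SE 0.11, limma adjusted p = 0.0108), Irx2 with −0.60 (SE 0.10, limma adjusted p = 0.0109), Tfap2b with −0.51 (SE 0.11, limma adjusted p = 0.0279), Sim1 with −0.45 (SE 0.10, limma adjusted p = 0.0350) and Klf15 with −0.42 (SE 0.09, limma adjusted p = 0.0266). Sim1 and Sim2 encode bHLH-PAS factors, Irx2 an Iroquois homeobox factor of the intermediate nephron, Tfap2b the AP-2β factor of the distal nephron and Klf15 a Krüppel-like factor. None differed by 2-fold.

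The summed levels of thick ascending limb markers and of podocyte and parietal markers were also lower in males. The summed level of thick ascending limb markers was 58.1 to 65.6 in females and 48 to 55.7 in males. Most of it was Umod, which did not pass (limma adjusted p = 0.088). Of these markers 1 of 4 passed, the claudin Cldn16, which fell with −0.62 (limma adjusted p = 0.0287). The summed level of podocyte and parietal markers was 13.2 to 14 in females and 10.8 to 11.4 in males, and most of it was Podxl. Of these markers 2 of 6 passed, Cldn1 at −1.55 and Podxl at −0.27. Cldn16 did not pass the adjusted p in 7 of 18 alternative settings, and Podxl did not in 10. The part of these cell types in the values of the transcription factors was not tested. The count of 5 changed factors was 2 without female replicate 1 or 3 and 3 without female replicate 2 or male replicate 1 or 2. Sim2 and Irx2 passed in 18 of 18 alternative settings, whereas Sim1 did not pass in 11 of 18, Klf15 in 8 and Tfap2b in 5.

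Tubule genes known to depend on HNF4α or other liver-enriched factors, or to be bound by them, were looked at next. These factors include some outside the 8 members, so that the list is not an output of the members alone. Of 33 tested genes, 7 rose in males, 3 fell and 23 did not pass, with a median log2 fold-change of 0.10. 30.3% of the list thus passed the adjusted p, where 8.06% of all probes did, and 3 genes also passed the 2-fold limit. The list was chosen with earlier results of these data known and takes the brightest probe of each gene. The 2 shares are therefore not alike, and their difference is not a result about the list. Over the settings tried, the count of list genes that passed was 5 to 14.

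Gc, which encodes the vitamin D binding protein, and Apoh, which encodes the plasma protein β2-glycoprotein I, had the largest male excess. Gc had signals of 83.3, 99.8, 95.4 and 51.6 in females and of 1915, 541, 1476 and 2085 in males. Its log2 fold-change was 3.89 (SE 0.41, limma adjusted p = 0.00175), or 14.8-fold. Every male signal of Gc was above every female signal, and male replicate 2 was the lowest of the males. Apoh had 53.7, 56.7, 45.1 and 59.8 in females and 403, 347, 490 and 531 in males, with a log2 fold-change of 2.86 (SE 0.14, limma adjusted p = 8.2e-05), or 7.25-fold. The promoter of Apoh, printed above, held the FOXA letters, and that of Gc held none of the searched motifs.

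Ttr, which encodes the thyroid hormone carrier transthyretin, went the other way. It had signals of 3119, 1091, 1668 and 767 in females and of 90.1, 19.7, 28.0 and 34.2 in males, and it was well above background on 4 female and 2 male arrays. Its fitted log2 fold-change was −5.53 (SE 0.54, limma adjusted p = 0.00127), with no overlap of the sexes. The size rests in part on male replicates 2 and 3, which were not well above background. Over 17 alternative settings it lay between −5.96 and −4.42.

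Transporters made up 4 of the 7 smaller differences. Higher in males were the organic cation transporter Slc22a2 with a log2 fold-change of 0.62 (SE 0.13), the organic anion transporter Slc22a6 with 0.38 (SE 0.07), the urate transporter Slc17a3 with 0.37 (SE 0.09) and the phosphate transporter Slc34a3 with 0.29 (SE 0.07). G6pc1, the last enzyme of gluconeogenesis, had 0.30 (SE 0.07). Lower in males were Cubn, the endocytic receptor cubilin, with −0.59 (SE 0.08) and Hpd, an enzyme of tyrosine breakdown, with −0.48 (SE 0.08). All of them passed the adjusted p of limma, and none reached a 2-fold difference.

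Not all of these genes passed the adjusted p in every setting tried. Gc, Apoh, Cubn and Hpd passed in 18 of 18 alternative settings and Ttr in 17 of 17. Slc34a3 and G6pc1 did not pass in 11 of 18, Slc17a3 in 10, Slc22a2 in 4 and Slc22a6 in 1. The count of 10 changed genes was 6 without male replicate 1 and 6 without male replicate 4. Of the proximal tubule markers, 1 of 10 passed, which was Cubn again, and their summed level was 306 to 351 in females and 297 to 322 in males. Of the 10 changed genes, 9 had a promoter entry, and the FOXA letters (in 11.6% of all windows) were found in those of Apoh, Hpd and Slc34a3, the STAT5 and BCL6 letters (7.67%) in those of Apoh and Cubn, and the HNF4 letters (3.95%) and C/EBP letters (9.22%) in none. These counts over 9 promoters are a description.

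**Figure D4:**
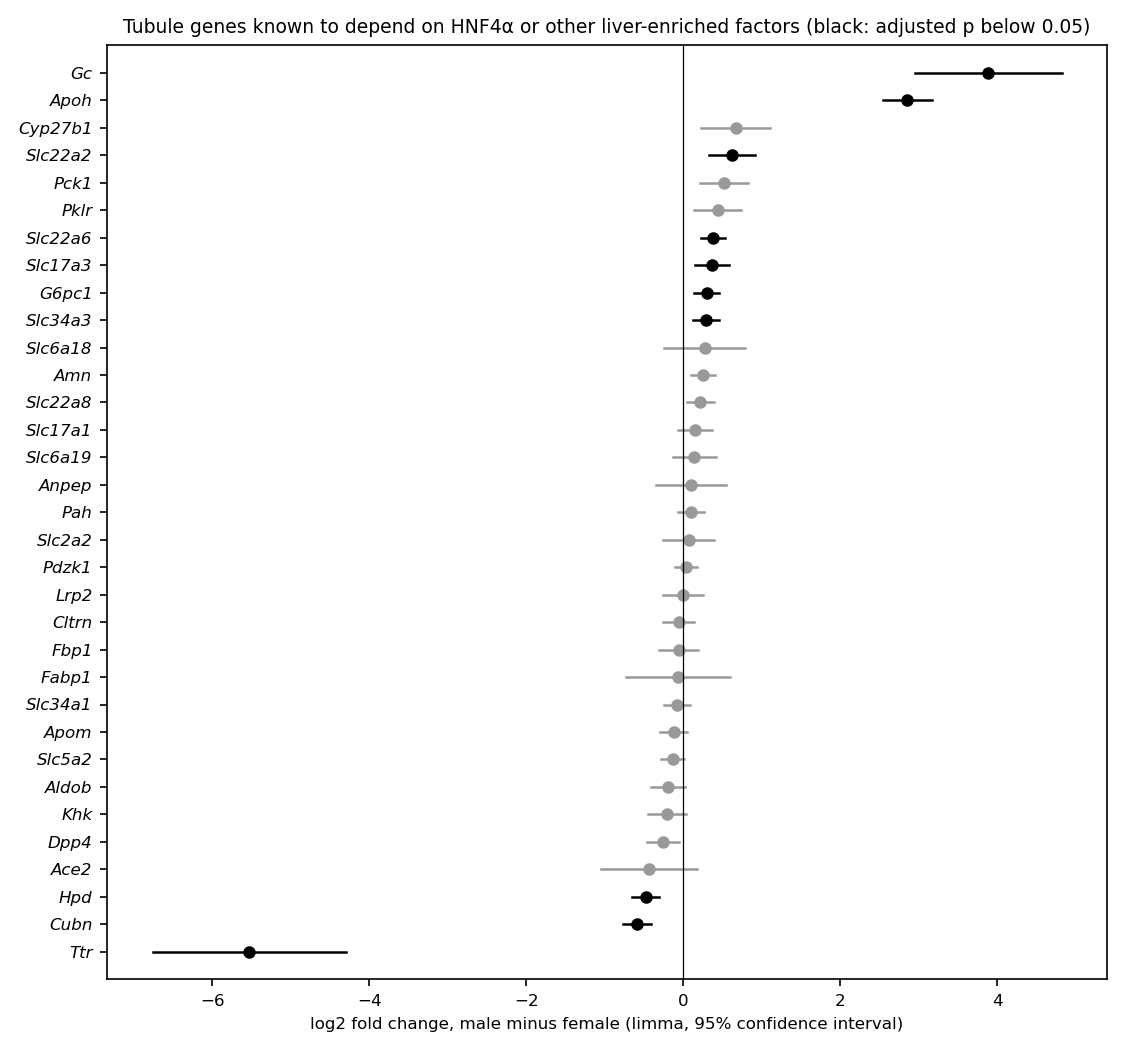
Log2 fold-change, male minus female, with its 95% confidence interval from limma for the 33 tested genes known to depend on HNF4α or other liver-enriched factors, in order of size, in black where the adjusted p was below 0.05 and in grey otherwise. Gc at 3.89, Apoh at 2.86 and Ttr at −5.53 stand apart from the other genes, which lie between −0.59 and 0.67. The value of Ttr rests in part on male signals that were not well above background.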

How the data were processed

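Total RNA of cortical kidney slices was labelled with Cy3 and hybridized to Agilent rat arrays, 1 rat per array. Per the file headers, the deposited intensity of each spot was background-subtracted and spatially detrended by the Feature Extraction software, without normalization between arrays. The authors also deposited a log2 table with the same rank order and an equal distribution on every array. The submitters' processing notes name limma 3.8.2. The software's flags were used as deposited, under which 73.8% to 79.1% of the probes of an array were well above background and 0 spots saturated. The number of arrays limits the precision.

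Outlier spots were left out, the 75th percentile of each array was subtracted from its log2 intensities, spots of a probe were averaged, and probes well above background (on most of their spots) on at least 4 of 8 arrays were fitted with limma 3.58.1 in R 4.3.3 (male minus female, no covariate). Benjamini-Hochberg adjustment was made over 23425 probes, of which 443 were called (187 higher in males, 256 in females). In data simulated for this comparison, the fit found 191 (95.5%) of 200 probes, out of 23425, that had been given a log2 change of 2, and made 1 false call. This share does not describe smaller changes, which most of the differences given here are. Per the labels, each array is a different rat.

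Genes were named through RefSeq records, and a gene is represented by its brightest probe, except that all probes of members are given. Named were all members, from each list the genes with an adjusted p below 0.05 (at most the 4 largest in each direction), and the 3 genes closest in profile to a member with such a p. Genes outside this rule, such as Foxa3, Cebpd, Cebpg, Prps1l3, Slc34a3, G6pc1, Slc17a3 and Klf15, were named after their values were seen, and some genes the rule would name are not reported here. The members and the 13 lists of other genes, namely relatives, kidney transcription factors, target genes and markers of 10 cell types, were chosen with earlier results of these data known. Alternatives were quantile normalization, the log2 table, other filters on dim probes, outlier spots kept, normexp (offset 16), array weights, a robust prior with an intensity trend, a block for the replicate number or the slide row, each array left out and the mean of a gene's probes.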

Additional observations from a re-analysis of the deposited data

Results flagged for a closer look

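In 4 groups of 4 rats, 1 rat stood apart from the other rats of its sex by most of the range. Over the 68 groups looked at, 3.4 such gaps are expected by chance, which gives about 1 in 20. Among the member probes it was Foxa1 A_44_P193083, where female replicate 4 had a log2 value of −7.08 and the other females −5.50 to −5.25. Without this rat the fitted log2 fold-change was −5.13. For Slc22a7, male replicate 2 had −4.60, where the other males had −3.89 to −3.80. For Pax3, male replicate 2 had 2.65, where the other males had 2.21 to 2.24. For Hpd, male replicate 2 had 4.59, where the other males had 4.39 to 4.41.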

How the results depend on the processing

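Foxa1 A_44_P193083 kept its direction and its adjusted p below 0.05 in the 18 alternatives that could be fitted. The log2 fold-changes lay between −5.13 and −1.97, the last with normexp, and all of them rest on male signals below background. The settings are therefore not separate tests of the difference. This probe does not enter when probes must be well above background on all 8 arrays, so that 0 member probes were then called in place of 1. With an intensity trend and robust prior, and with array weights, 2 member probes passed the adjusted p in place of 1, the second being Cebpb. The mean of both Foxa1 probes gave −2.25 in place of the 0.21 of the brighter probe, a value that rests on male signals below background. Foxa3 turned to −0.038 with normexp, and Hnf4a lay between −0.125 and 0.11 with 1 rat left out. Without a filter on dim probes, 1 relative of the members and 2 kidney transcription factors passed, and with the mean of all probes 4 relatives passed. With 1 rat left out, the number that passed was 0 to 2 for the relatives, 2 to 5 for the kidney transcription factors and 6 to 9 for the target genes. Over all probes, 1889 passed the adjusted p, against 1194 without the filter and 1012 to 1544 with 1 rat left out, since fewer rats or more probes tested raise the adjusted p. The called probes stayed between 334 and 495, and the share called higher in males was 42.2%, or 50.9% with quantile normalization. Causes of the other changes were not tested.

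Whether the replicate numbers of the labels pair the rats was not tested. Same-numbered rats had correlations of 0.125, 0.043, −0.0079 and 0.117 in their deviations from the mean of their sex. Of the 4 males, 3 were closest to the female of their own number, and of the 4 females, 2 were closest to the male of theirs. With the replicate block, 1030 probes passed the adjusted p, with 1 relative, 3 kidney transcription factors and 5 target genes among them.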

Other observations

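Markers of the remaining cell types were counted in the same way. Of the hepatocyte list, 1 of 5 tested genes passed the adjusted p of limma, the fibrinogen gene Fgb, which fell in males with a log2 fold-change of −1.35. Of the adipocyte list, 1 of 5 passed, the lipoprotein lipase gene Lpl, which fell with −0.79. None of 3 distal convoluted tubule genes and none of 3 adrenal cortex genes passed.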
